A study of Mus musculus with 6 samples.

Results

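Ligand-gated ion channels are membrane proteins that open a pore when a transmitter binds to them. Their genes were described here in muscle cells and epithelial cells sorted from tracheas of mouse embryos. Members were taken from the deposited count table by gene symbol: subunits of ionotropic glutamate receptors, GABA-A, nicotinic acetylcholine and glycine receptors, ATP-gated P2X receptors and serotonin 5-HT3 receptors. The symbol patterns matched 69 genes, of which 2 were left out by the selection rule, so that 67 of 23478 genes in the table were members. Of these, 65 encode receptor subunits: 4 AMPA, 5 kainate, 2 delta and 7 NMDA glutamate receptor genes, 19 GABA-A, 14 nicotinic, 5 glycine, 7 P2X and 2 5-HT3 receptor genes. The other 2 matched the pattern by name only and encode no subunit. One of them, Grin1os, is an annotated RNA on the strand opposite Grin1.

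The study sorted 2 cell populations from these tracheas at embryonic day 13.5, with 3 RNA-seq libraries of each. Every library, of either population, came from control embryos of the genotype Bmp4 f/f; gamma SMA eGFP, that is, with floxed Bmp4 alleles (the labels name no Cre) and an eGFP reporter named for gamma smooth muscle actin. After digestion with TrypLE, the GFP signal marked the muscle fraction for sorting and an antibody to the surface protein Epcam marked the epithelial fraction. The labels do not say how many embryos were pooled or whether replicates came from separate litters, so p-values measure the spread between these libraries only.

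Nicotinic, GABA-A, glycine and 5-HT3 receptors belong to the Cys-loop family, in which several subunits surround 1 pore. Nicotinic and 5-HT3 receptors pass cations, while GABA-A and glycine receptors pass chloride, whose direction of flow depends on the cation-chloride cotransporters of the cell. Ionotropic glutamate receptors and P2X receptors are unrelated cation channels gated by glutamate and by extracellular ATP. In the airway, contraction of smooth muscle in response to acetylcholine runs mainly through muscarinic receptors, which couple to G proteins, and members of several of these channel families have been described in airway epithelium and smooth muscle.

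Total counts were between 11847432 and 54848820 per library. The sort labels matched defining markers: 9 of 10 smooth muscle genes were higher in muscle and 11 of 11 epithelial genes in epithelium. The lists include Epcam, the target of the sorting antibody, and Actg2, the gamma smooth muscle actin gene. Part of this match was therefore given by the sort. Unless stated otherwise, CPM is counts per 1000000 counts of the library, with library sizes scaled by TMM (trimmed mean of M-values). Summed CPM of the smooth muscle genes was 16580, 4085 and 17450 in muscle replicates 1, 2 and 3 against 129 to 156 in epithelium. Muscle replicate 2 thus stood apart in these markers, and the ectonucleotidase gene Entpd1 and the muscarinic receptor gene Chrm2 were also lowest there among the muscle libraries. Libraries differed in the level of genes that neither population should express. Summed CPM by library total over 1456 olfactory and vomeronasal receptor genes reached 1817 and 636 for the epithelium libraries numbered 2 and 3 and 883 for the muscle library numbered 2, and the other 3 libraries had 7.26 to 37.8. In the identifier row of the file header, both replicates numbered 2 carry a number that can be read as an earlier date than that of the other 4 libraries. The header does not say what it marks.

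The receptor genes set a background for each library. Their 95th percentile was 0.152, 1.96 and 0.101 CPM in muscle replicates 1, 2 and 3 and 0, 3.54 and 1.43 CPM in epithelium replicates 1, 2 and 3. Against this level, 28 members were above background in all 3 libraries of both populations, 9 in muscle only, 5 in epithelium only and 25 in neither. Among the 9 were Gabra2, Gabra4, Gabrg1, Grin1, Grin2b, Grin2c, Grin3b and P2rx1, and among the 5 were Chrna3, Gabrq, Htr3a and P2rx2. Here "only" means that the other population failed the criterion, and no difference was tested by it. With the 99th percentile instead, 31 rather than 42 members were above background in either population. Of the genes just named, Gabra2, Gabrg1, Grin1, Grin2c, P2rx1 and Chrna3 were then above it in neither. Per kilobase of exon, at the 95th percentile, 27 members were above background in either population. Gabra2, Gabrg1, Grin1, Grin2b, Grin2c, Chrna3 and Gabrq were above that level in neither.

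**Figure D1:**
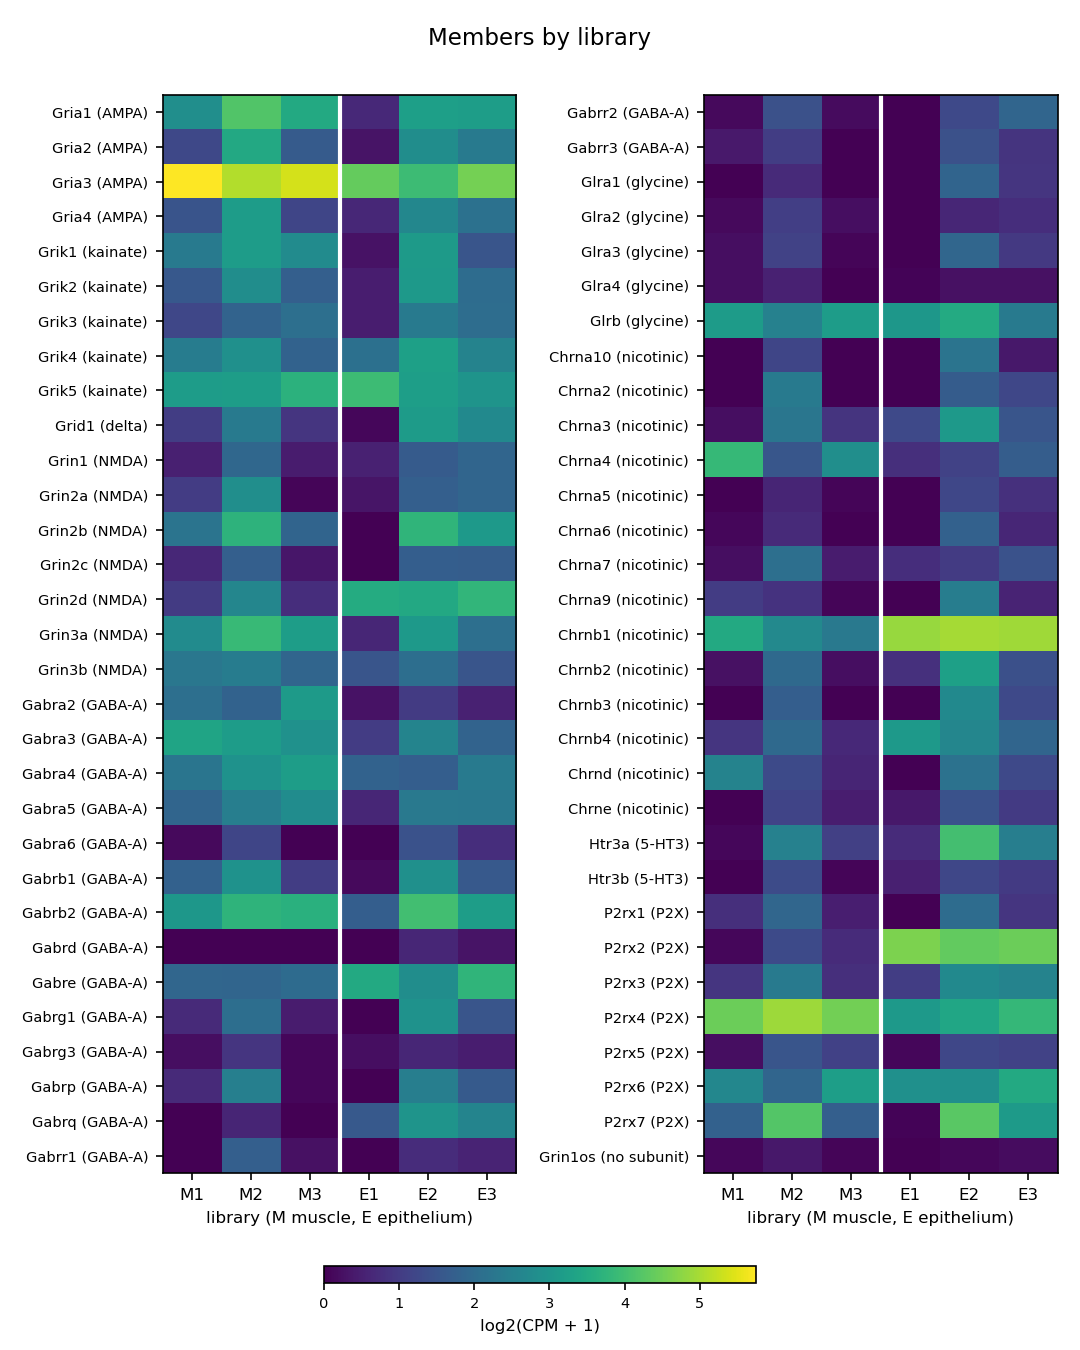
Level of 62 of the members, as log2(CPM + 1) with TMM-scaled library sizes, in muscle replicates 1 to 3 (M1 to M3) and epithelium replicates 1 to 3 (E1 to E3), with members in rows grouped by family. Gria3 and P2rx4 in muscle and Chrnb1 and P2rx2 in epithelium stand at the bright end, and many low rows are brightest in M2 and E2, where 21 and 30 of the 67 members had their highest value.

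Most members had their highest value in the same few libraries. Of the 67 members, 30 (44.8%) had their highest CPM in epithelium replicate 2 and 21 (31.3%) in muscle replicate 2, compared with 26.3% and 12.9% of all tested genes. Among all tested genes with an average log2 CPM under 2, these shares were 56.0% and 25.5%. The part of the receptor-gene background in any single member was not tested, so its level in each library is given beside each result below.

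Of the 67 members, 63 passed the filter on low counts and were tested with edgeR's quasi-likelihood test across 19375 genes. Gabrd, Chrna10, Glra4 and Grin1os did not pass it. At an adjusted p under 0.05, 2 members were higher in muscle, Gria3 and P2rx4, and 3 were higher in epithelium, among them P2rx2 and Chrnb1. Called members were 7.94% of those tested, beside 10.7% of all tested genes (6.58% higher in muscle and 4.11% higher in epithelium). In libraries of sorted cells, more cells of a type and more RNA per cell cannot be told apart.

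Without adjustment, 11 members had a p under 0.05, and over all tested genes this share was 21.7%. Muscle libraries lay above all epithelium libraries for 5 members and below all of them for 7, against 16.4% and 10.5% of all tested genes. The median log2 fold change of muscle over epithelium was -0.32 over the tested members and -0.10 over all tested genes. The sign of the members' median depended on the setting. It was 0.63 with limma-voom, 0.75 with the summed receptor-gene level as a covariate, -1.80 without muscle replicate 2 and 0.45 without epithelium replicate 2. All 5 calls fell among the 24 members whose average log2 CPM reached 2. Of these 24, 20.8% were called, beside 16.2% of all tested genes at that level. None of the 39 members below it was called by edgeR or limma-voom and 2 were by DESeq2 (Gabra2 and Gabrq). In edgeR, 2 of the 39 had an unadjusted p under 0.05, as did 68 of all 6637 tested genes below that level. At the adjusted threshold, 0.0753% of these 6637 genes were called.

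**Figure D2:**
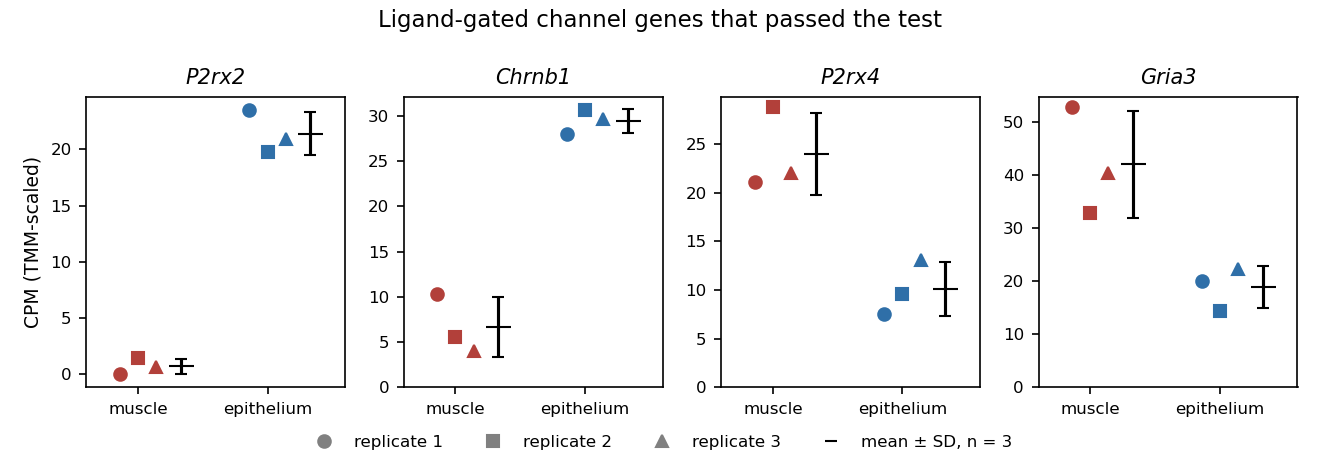
CPM (TMM-scaled) of 4 members that passed the test, 1 panel a gene with its own linear axis. Points are libraries, shaped by replicate number, and bars are the mean and SD of 3 libraries. Groups do not overlap in any panel, and P2rx2 lies between 19.8 and 23.5 CPM in epithelium against at most 1.45 CPM in muscle.

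The largest difference among the called members was in P2rx2, an ATP-gated cation channel subunit that desensitises slowly and can also assemble with P2rx3. In the order of replicates 1, 2 and 3, which holds for all lists of values here, its CPM was 0.0760, 1.45 and 0.632 in muscle and 23.5, 19.8 and 20.9 in epithelium. The muscle values rest on 2, 29 and 25 counts. Its 3 epithelium libraries were close together and far above all muscle libraries. It was higher in epithelium by 30.2-fold (log2 fold change -4.92 ± 0.82 SE, adjusted p = 0.0055, n = 3 libraries per group, edgeR). In muscle replicates 1 and 2 its level was below the receptor-gene background of the library.

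P2rx4, a widely expressed ATP-gated channel found on both the surface and lysosomes of cells, differed in the opposite direction. CPM of P2rx4 was 21.1, 28.8 and 22.0 in muscle and 7.58, 9.62 and 13.1 in epithelium, so the lowest muscle library was above the highest epithelium library. The level was 2.37-fold higher in muscle (log2 fold change 1.25 ± 0.31 SE, adjusted p = 0.035). This call rests on all 6 libraries, since leaving out any 1 of them gave an adjusted p between 0.061 (without epithelium replicate 2) and 0.098 (without epithelium replicate 1), at log2 fold changes of 1.09 to 1.38. Other scaling also ended it, with 1.16 and an adjusted p of 0.058 for RLE size factors and 1.02 and 0.14 for library size alone.

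The other P2X genes did not pass the test. P2rx6, a subunit that forms channels poorly on its own, had 5.36, 2.70 and 8.39 CPM in muscle and 6.45, 6.28 and 10.2 CPM in epithelium, with overlapping groups (log2 fold change -0.48 ± 0.60 SE). P2rx7, which opens at high ATP and is best known in immune cells, had 2.47, 17.7 and 2.33 CPM in muscle and 0.0372, 18.4 and 7.77 CPM in epithelium. Its 3 highest libraries were the 3 with the highest receptor-gene background, and 9 immune cell markers, with a summed CPM of 3.19, 50.6 and 21.3 in muscle and 4.67, 44.0 and 22.8 in epithelium, were also highest in both replicates numbered 2. The part of either in the P2rx7 values was not tested. P2rx1, P2rx3 and P2rx5 had group means of 0.871 to 3.90 CPM, log2 fold changes of -1.04 to 0.28 and adjusted p of 0.81 or more.

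P2rx7 and P2rx4 are neighbours on chromosome 5 in the GENCODE annotation of GRCm38 (mm10). P2rx7 lies at chr5:122643911-122691432 and P2rx4 at chr5:122707544-122729738, both on the plus strand and 16.1 kb apart, and of the pair only P2rx4 was called. P2rx2 lies elsewhere on the same chromosome, at chr5:110339812-110343212 on the minus strand.

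**Figure D3:**
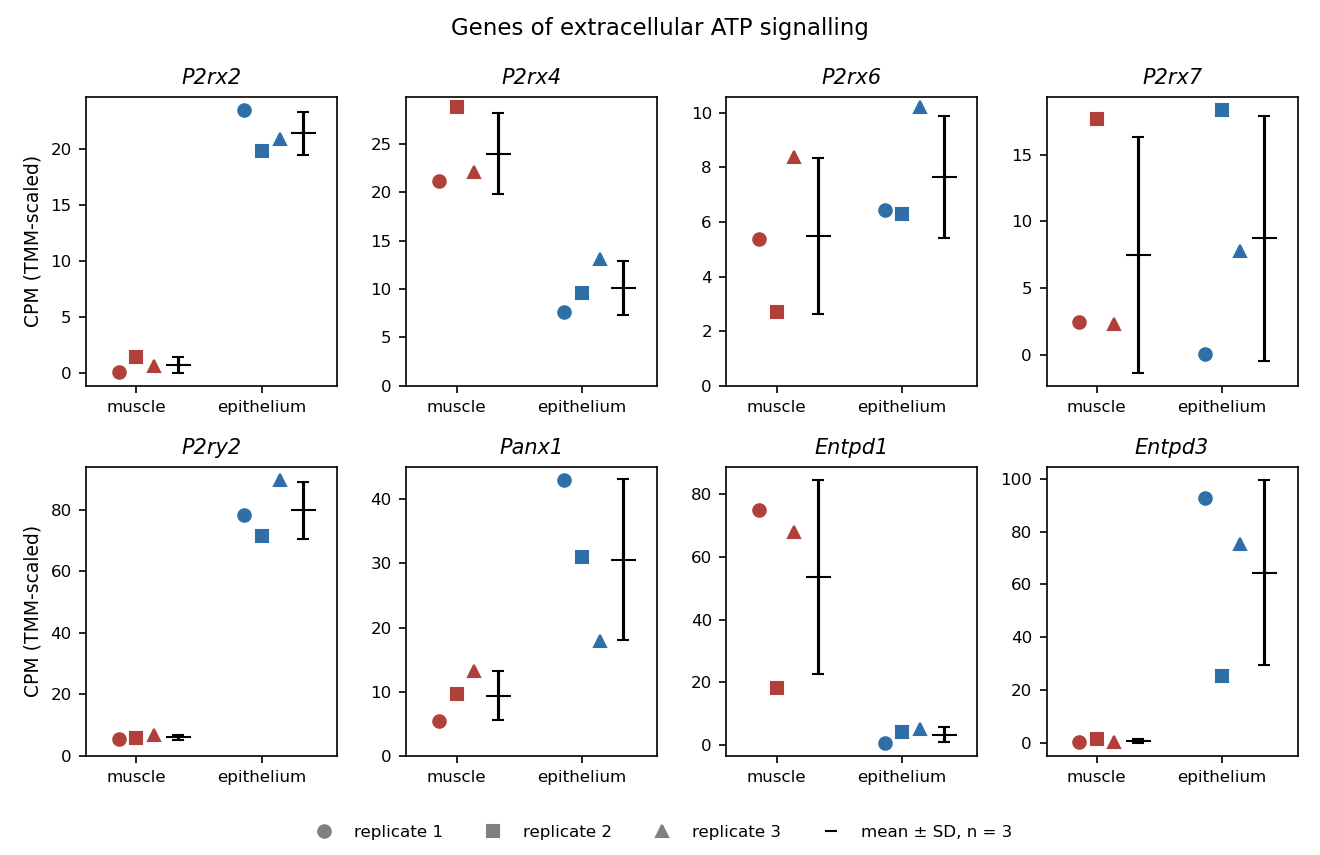
CPM (TMM-scaled) of 4 P2X receptor genes (upper row) and of 4 other genes of extracellular ATP signalling (lower row), each on its own linear axis, with points for libraries and bars for the mean and SD of 3. P2rx2, P2ry2, Panx1 and Entpd3 are higher in epithelium, P2rx4 and Entpd1 are higher in muscle, and P2rx6 and P2rx7 overlap. The lower row shows only genes that passed the test, and others of extracellular ATP signalling did not pass.

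Some other genes that act on extracellular ATP also differed, and those described here were named because they were called. Others were not called by edgeR, among them Entpd2 (adjusted p = 0.24), Slc17a9 (0.82), P2ry1 (0.96), P2ry4 (0.96), P2ry6 (0.92), P2ry12 (0.99), P2ry14 (0.99) and Nt5e. P2ry2, a G protein-coupled receptor for ATP and UTP, had 5.47, 5.74 and 6.85 CPM in muscle and 78.4, 71.5 and 89.8 CPM in epithelium (log2 fold change -3.73 ± 0.25 SE, adjusted p = 9.6e-05). Entpd3, which encodes a surface enzyme that hydrolyses ATP, had 0.190, 1.5 and 0.506 CPM in muscle and 92.8, 25.2 and 75.4 CPM in epithelium (-6.53 ± 0.78 SE, adjusted p = 0.0012). Entpd1, which encodes a related enzyme, lay the other way, with 74.8, 18.2 and 67.7 CPM in muscle and 0.799, 4.28 and 5.11 CPM in epithelium (4.01 ± 0.76 SE, adjusted p = 0.01). So the called P2X genes and the called ectonucleotidase genes each had members on both sides.

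Panx1, a channel through which cells release ATP, had 5.44, 9.59 and 13.2 CPM in muscle and 43.0, 30.9 and 17.9 CPM in epithelium (log2 fold change -1.70 ± 0.42 SE, adjusted p = 0.032). Leaving out any 1 of muscle replicates 1 and 2 and epithelium replicates 1 and 2 ended that call, with adjusted p of 0.089, 0.051, 0.1 and 0.057. Without muscle replicate 1 the call of Entpd1 ended too, at an adjusted p of 0.051, as it did with the replicate block (0.065) and with the receptor-gene level as a covariate (0.11). The call of Panx1 ended with the block as well (0.11). The calls of P2ry2 and Entpd3 held without each library in turn.

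Chrnb1 was the only nicotinic gene called by edgeR or limma-voom, and DESeq2 called 2, Chrnb1 and Chrna4. It encodes the beta subunit of the nicotinic receptor of skeletal muscle, where the receptor receives acetylcholine at the nerve ending. CPM of Chrnb1 was 10.3, 5.54 and 4.04 in muscle and 28.0, 30.6 and 29.7 in epithelium, with an epithelium SD of 1.34. All epithelium libraries were above all muscle libraries. The gene was 4.43-fold higher in epithelium (log2 fold change -2.15 ± 0.38 SE, adjusted p = 0.0071), and that held without each library in turn, with log2 fold changes of -2.61 to -1.87.

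RefSeq promoter windows of GRCm38.p6 were given for 46 members, and among the called genes for Chrnb1 and P2rx4, which differed in opposite directions. Their 250 bases before the start are printed from 5′ to 3′ on the gene's strand, because they are the start regions of called genes. Chrnb1 (gene at chr11:69784036-69795943, minus strand) has the window chr11:69795938-69796187, and P2rx4 the window chr5:122707294-122707543 on the plus strand. Capitals mark matches to a searched motif on either strand.
Chrnb1: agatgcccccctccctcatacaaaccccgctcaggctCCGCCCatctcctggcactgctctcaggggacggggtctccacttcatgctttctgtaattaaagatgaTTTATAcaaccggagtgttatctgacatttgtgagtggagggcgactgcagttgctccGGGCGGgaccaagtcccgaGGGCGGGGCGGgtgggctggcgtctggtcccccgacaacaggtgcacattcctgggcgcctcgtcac
P2rx4: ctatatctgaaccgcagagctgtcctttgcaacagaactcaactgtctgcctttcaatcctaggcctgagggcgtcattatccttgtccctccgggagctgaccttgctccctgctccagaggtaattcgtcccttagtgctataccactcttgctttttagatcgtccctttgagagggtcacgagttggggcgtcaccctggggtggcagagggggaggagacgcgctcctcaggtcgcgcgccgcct
The motifs searched were TGTTTAC (the core bound by FOXA factors of endoderm), CTCAAG (bound by NKX2-1), the CArG box (bound by serum response factor in smooth muscle), the GC box GGGCGG and TATAAA. The Chrnb1 window holds 4 GC box matches, a pair of which overlap, and 1 TATAAA match, on the opposite strand. No match was found in the P2rx4 window. Over 32851 windows of this length, 3.17% held TGTTTAC, 13.3% CTCAAG, 1.47% a CArG box, 32.7% GGGCGG and 12.4% TATAAA. The GC content was 60.4% with 14 CpG in Chrnb1 and 57.2% with 13 CpG in P2rx4, against medians of 52.4% and 6 over all windows.

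Chrnd and Chrne, which encode the delta and epsilon subunits of the same receptor type, did not share this pattern. Chrnd had 4.98, 1.45 and 0.506 CPM in muscle and 0, 3.48 and 1.43 CPM in epithelium, and Chrne did not exceed 1.74 CPM in any library. Their adjusted p were 0.95 and 0.93. Rapsn, whose product clusters this receptor under the nerve ending, had 15.1, 1.65 and 2.65 CPM in muscle and 1.25, 1.54 and 0.789 CPM in epithelium (adjusted p = 0.23). These genes were chosen after their values were seen.

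Muscle replicate 1 had the highest value of Chrnd, Rapsn and Chrna4, and of the summed skeletal muscle markers. Over 11 such markers, summed CPM was 845, 172 and 387 in muscle and 8.14, 49.5 and 26.6 in epithelium, with 2 of 11 called higher in muscle (Acta1 and Tnni1). Not each marker followed the sum, and Tnni1, Myf6 and Ckm were highest in muscle replicate 2. Myog, a regulator of skeletal muscle differentiation, had 245, 1.20 and 17.3 CPM in muscle and 0, 3.34 and 1.28 CPM in epithelium (adjusted p = 0.093). Chrna4, an alpha subunit best known from brain, had 13.3, 1.90 and 6.17 CPM in muscle and 0.706, 1.20 and 2.22 CPM in epithelium (log2 fold change 2.37 ± 0.97 SE, adjusted p = 0.19). Chrna4 passed by DESeq2 (adjusted p = 0.05 after rounding) and without the 3 libraries of high background (0.032). The part of skeletal muscle cells in these values was not tested.

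The remaining 12 nicotinic genes were low, with group means of 0.183 to 5.19 CPM and, for the 11 tested, log2 fold changes of -2.14 to 0.51 and adjusted p of at least 0.39. In 10 of the 12 the highest value was in one of the 3 libraries of high receptor-gene background. The other 2 were Chrnd, given above, and Chrnb4, a subunit of autonomic ganglia. Chrnb4 had 0.836, 2.90 and 0.581 CPM in muscle and 7.68, 5.21 and 2.67 CPM in epithelium (adjusted p = 0.39). Its highest library was epithelium replicate 1, the library with the least background. Chrnb4, Chrna3 and Chrna5 lie side by side on chromosome 9, with gaps of 1.6 and 2.3 kb, and their log2 fold changes were -1.85, -1.19 and -1.91, none past the threshold.

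Among glutamate receptor genes, 1 of 4 AMPA genes was called, and none of 5 kainate or 7 NMDA genes (edgeR), beside 10.7% of all tested genes. Gria3 encodes a subunit of the AMPA receptor, which carries fast glutamate signals. CPM of Gria3 was 52.8, 32.9 and 40.4 in muscle and 20.1, 14.4 and 22.2 in epithelium, and the groups did not overlap. The gene was 2.22-fold higher in muscle (log2 fold change 1.15 ± 0.28 SE, adjusted p = 0.03). Leaving out 1 library ended this call in 5 of 6 cases: adjusted p was 0.12 without muscle replicate 1, 0.073 without muscle replicate 3, and 0.063, 0.064 and 0.086 without epithelium replicates 1, 2 and 3.

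The other AMPA genes were lower and varied more between libraries. Gria1 had 6.16, 17.2 and 10.2 CPM in muscle and 0.595, 8.42 and 8.23 CPM in epithelium (log2 fold change 0.96 ± 0.85 SE). Gria2, whose edited subunit limits calcium flow through AMPA receptors, had 1.37, 10.03 and 2.12 CPM in muscle and 0.242, 6.02 and 4.21 CPM in epithelium (0.37 ± 1.22 SE). Gria4 had group means of 3.74 and 3.12 CPM. In each of these genes the highest muscle library was replicate 2 and the lowest epithelium library was replicate 1, as in the receptor-gene background.

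Of the NMDA genes, Grin2d did not overlap between the populations and was the only one with an unadjusted p under 0.05, but it missed the adjusted threshold. It encodes an NMDA subunit known from the embryonic brain, and had 0.988, 5.19 and 0.683 CPM in muscle and 10.6, 10.1 and 12.9 CPM in epithelium (log2 fold change -2.30 ± 0.82 SE, adjusted p = 0.13). It passed without muscle replicate 2 (adjusted p = 0.0048), by DESeq2 (0.038) and by limma-voom (0.027). Grin3a had 5.82, 13.7 and 8.14 CPM in muscle and 0.539, 7.49 and 3.27 CPM in epithelium (1.30 ± 0.87 SE, adjusted p = 0.52), and limma-voom called it at a log2 fold change of 2.71 (adjusted p = 0.048). Grin2b had 3.65, 12.1 and 2.63 CPM in muscle and 0, 12.6 and 7.62 CPM in epithelium (-0.13 ± 1.51 SE), with its 3 highest values in the 3 libraries of high background.

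Grin1, which every NMDA receptor needs, had means of 1.19 CPM in muscle and 1.75 CPM in epithelium (adjusted p = 0.94). Grin1 shares 1307 exonic bases with Grin1os on the other strand, and the library kit keeps no strand in standard use, so reads there cannot be assigned to either gene. Grin2a, Grin2c and Grin3b had group means of 1.07 to 3.60 CPM and adjusted p of at least 0.88.

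No kainate receptor gene was called by edgeR, DESeq2 or limma-voom, and 0 of 5 had an unadjusted p under 0.05. Grik5, a subunit that needs a partner of the Grik1 to Grik3 group to form a channel, had 8.06, 8.19 and 12.03 CPM in muscle and 14.3, 8.29 and 6.87 CPM in epithelium (log2 fold change -0.06 ± 0.44 SE, adjusted p = 0.98). Grik4, of the same kind, had 4.37, 6.39 and 2.53 CPM in muscle and 3.38, 8.69 and 4.96 CPM in epithelium (-0.36 ± 0.71 SE). Grik1 had 4.18, 7.99 and 5.81 CPM in muscle and 0.223, 7.75 and 1.84 CPM in epithelium (0.88 ± 1.10 SE). Grik2 and Grik3 had group means of 2.39 to 3.73 CPM.

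**Figure D4:**
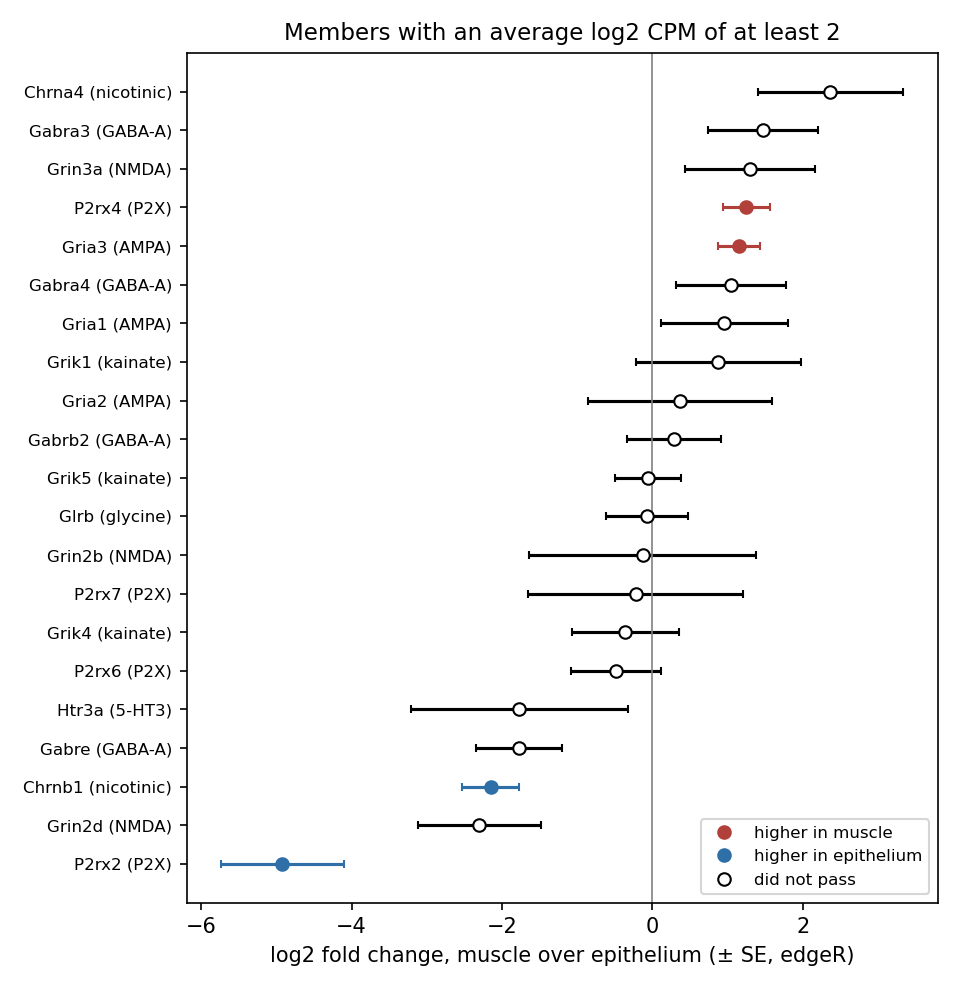
Log2 fold change of muscle over epithelium with its SE (edgeR) for 21 of the 24 members whose average log2 CPM reached 2, filled where the adjusted p was under 0.05. The scale runs from P2rx2 at -4.92 to Chrna4 at 2.37, and SEs range from 0.28 for Gria3 to 1.51 for Grin2b.

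None of the 18 tested GABA-A genes was called by edgeR. Of them, 6 did not overlap between the populations, 3 with muscle above and 3 with epithelium above. Over all tested genes these shares were 16.4% and 10.5%. An unadjusted p under 0.05 was found for 4 of the 18, beside 21.7% of all tested genes. DESeq2 called 4, among them Gabra2, Gabre and Gabrq, and limma-voom called 1. GABA-A receptors are built mostly from alpha and beta subunits with a further subunit such as gamma, epsilon or theta. Gabre, the epsilon subunit, had 2.74, 2.65 and 3.01 CPM in muscle and 10.2, 6.02 and 12.5 CPM in epithelium (-1.77 ± 0.57 SE, adjusted p = 0.089), and it passed without epithelium replicate 2 (0.048).

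Gabra3, an alpha subunit, did not overlap in the other direction. It had 9.28, 8.09 and 6.47 CPM in muscle and 1.04, 5.01 and 2.55 CPM in epithelium (log2 fold change 1.47 ± 0.73 SE, adjusted p = 0.3). Its 3 muscle libraries were close together, and its epithelium values followed the order of the receptor-gene background.

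Gabra4 had 3.73, 6.64 and 8.22 CPM in muscle and 2.51, 2.27 and 4.21 CPM in epithelium (log2 fold change 1.05 ± 0.73 SE, adjusted p = 0.54). Gabrb2 had 7.22, 12.3 and 11.6 CPM in muscle and 2.27, 15.0 and 8.23 CPM in epithelium (0.29 ± 0.63 SE). A pair of low genes was chosen after their values were seen. Gabrq, the theta subunit, had 0, 0.499 and 0 CPM in muscle and 2.03, 6.82 and 5.03 CPM in epithelium (-4.81 ± 2.03 SE, adjusted p = 0.2). Gabra2 had 3.31, 2.5 and 7.76 CPM in muscle and 0.223, 1.00 and 0.451 CPM in epithelium (3.03 ± 1.24 SE, adjusted p = 0.19).

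GABA-A genes lie in groups on the chromosomes, and the estimates of neighbours could differ in sign. On the X chromosome, Gabre (chrX:72255999-72274803), Gabra3 (chrX:72432681-72656848) and Gabrq (chrX:72825178-72842602) lie in this order with gaps of 157.9 and 168.3 kb, and their log2 fold changes were -1.77, 1.47 and -4.81. In the chromosome 5 group, Gabra2 had 3.03, Gabra4 1.05, Gabrb1 0.24 and Gabrg1 -1.0. None of these 7 genes passed the test, so the directions are those of the estimates. In all, 33 of the 67 members lie within 1000000 bases of another member, in 13 groups.

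Gabrd, the delta subunit, had no count in any muscle library and 0, 0.535 and 0.225 CPM in epithelium. It was above the receptor-gene background in 0 libraries. Gabrp, the pi subunit, had 0.608, 4.59 and 0.0758 CPM in muscle and 0, 4.48 and 2.10 CPM in epithelium (adjusted p = 0.97). Of the 13 GABA-A genes outside the naming rule, 11 had their highest value in one of the 3 libraries of high receptor-gene background.

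No glycine or 5-HT3 receptor gene was called by edgeR, DESeq2 or limma-voom, and none had an unadjusted p under 0.05. Glrb, which anchors the receptor to gephyrin and needs an alpha subunit to form a channel, had 7.98, 4.74 and 8.06 CPM in muscle and 7.31, 10.4 and 4.13 CPM in epithelium (log2 fold change -0.07 ± 0.55 SE, adjusted p = 0.98). The 4 alpha genes had group means of at most 1.23 CPM, and all 4 had their highest value in one of the 3 libraries of high receptor-gene background. Of the 5-HT3 genes, Htr3a, which can form a channel alone, had 0.0760, 4.79 and 1.14 CPM in muscle and 0.632, 15.3 and 4.51 CPM in epithelium (-1.77 ± 1.44 SE, adjusted p = 0.65). Htr3b, which needs Htr3a, had means of 0.516 and 0.914 CPM.

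Levels were compared between genes as CPM per kilobase of exon in the GENCODE annotation. In muscle the order began with P2rx4 at 8.88 ± 1.56 (SD, n = 3), Gria3 at 7.73 ± 1.86, Chrnb1 at 3.08 ± 1.53, Gabrb2 at 2.52 ± 0.667 and Grik5 at 2.51 ± 0.600. P2rx4 and Gria3 differed by less than their SD, as did the last 3, while Gria3 and Chrnb1 differed by more. In epithelium it began with Chrnb1 at 13.7 ± 0.622 and P2rx2 at 10.03 ± 0.899, which differed by more than their SD, and went on with P2rx4 at 3.74 ± 1.03, Gria3 at 3.48 ± 0.740 and Htr3a at 3.27 ± 3.65, which did not. P2rx4 stood at percentile 63.8 of all tested genes in muscle and Chrnb1 at percentile 73.2 in epithelium, with P2rx2 at percentile 67.5.

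The calls of P2rx2, Chrnb1, Gria3 and P2rx4 were also computed separately by the number in the header identifier. In the 4 libraries with the later number (2 of each population), log2 fold changes were -5.95 for P2rx2 (adjusted p = 0.0086), -2.09 for Chrnb1 (0.039), 1.06 for Gria3 (0.034) and 0.99 for P2rx4 (0.13), each p from edgeR and adjusted over all genes. In the single pair with the earlier number, which allows no test, the log2 ratios were -3.77, -2.47, 1.19 and 1.58 in the same order of genes. Directions were the same in both sets for all 4 genes. Their groups do not overlap over all 6 libraries, so this was given in advance and is no further support. The call of P2rx4 did not hold within the later set.

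With the summed receptor-gene level as a covariate, the 5 calls remained and 9 further members passed. Among the 9 were Gabra2, Gabra3, Gria1 and Grin3a, higher in muscle, and Gabre, Gabrq and Grin2d, higher in epithelium, giving 7 in each direction. Calls over all genes rose as well in this fit, from 2071 to 2951. Without the 3 libraries of high background, which leaves 2 muscle libraries and 1 epithelium library assumed to vary as muscle does, P2rx2 (adjusted p = 0.011) passed. Chrnb1 (0.062), P2rx4 (0.11) and Gria3 (0.11) did not, at log2 fold changes of -2.14, 1.32 and 1.03. That set was chosen after seeing the data.

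Genes that make, move, anchor or answer the same transmitters were taken from 5 lists, of which 127 genes were tested. Of these, 11 were higher in muscle and 8 in epithelium, or 15.0% called beside 10.7% of all tested genes. The lists were written with earlier results of these data known, so these shares are a description and no test. Among 24 genes of transmitter synthesis and breakdown, 2 were higher in muscle and 2 in epithelium, or 16.7% called. Besides Entpd1 and Entpd3, these were Abat, the enzyme that breaks down GABA, with 148, 105 and 148 CPM in muscle and 51.0, 37.8 and 26.7 CPM in epithelium (log2 fold change 1.80 ± 0.30 SE, adjusted p = 0.0055), and Alpl, a phosphatase that can act on nucleotides, higher in epithelium (-2.14 ± 0.36 SE, adjusted p = 0.0057).

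Among 21 tested transporter genes, Slc1a3, which takes up glutamate, and Slc6a9, which takes up glycine, were higher in muscle, and Panx1 was higher in epithelium. Called genes were 14.3% of this list, beside 10.7% of all tested genes. Slc1a3 had 102, 127 and 130 CPM in muscle and 28.5, 62.8 and 41.2 CPM in epithelium (log2 fold change 1.44 ± 0.31 SE, adjusted p = 0.019). Slc6a9 had 48.0, 33.5 and 39.0 CPM in muscle and 16.04, 19.9 and 12.4 CPM in epithelium (1.32 ± 0.27 SE, adjusted p = 0.015). The call of Slc1a3 ended without muscle replicate 3 or epithelium replicate 3, and that of Slc6a9 without muscle replicate 1 or epithelium replicate 3, with adjusted p of 0.051 and 0.1 for the former and 0.054 and 0.086 for the latter. Both ended with library size only (0.1 and 0.058), and that of Slc6a9 without the 3 libraries of high background (0.069).

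The largest list held 44 genes of receptor assembly, auxiliary and clustering proteins, with 6 calls on the muscle side and 3 on the epithelial side. Called genes were 20.5% of this list, beside 10.7% of all tested genes (6.58% higher in muscle and 4.11% higher in epithelium). Nlgn3, a synaptic adhesion protein, had 108, 82.8 and 116 CPM in muscle and 18.0, 32.2 and 13.8 CPM in epithelium (log2 fold change 2.26 ± 0.35 SE, adjusted p = 0.0037). Gsg1l, an AMPA receptor auxiliary subunit, was higher in muscle as well (3.41 ± 0.87 SE, adjusted p = 0.038), but not without muscle replicate 1, 2 or 3 or epithelium replicate 3, with adjusted p of 0.062 to 0.16. The call of Gsg1l also ended with RLE size factors (0.069), library size only (0.1), no filter (0.065), the replicate block (0.077) and the receptor-gene covariate (0.063), and it held under 6 of 15 alternatives.

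On the epithelial side of this list were Lypd6b and Lypd6, small surface proteins that modulate nicotinic receptors, and Shisa7, a GABA-A receptor auxiliary protein. Lypd6b had 0.950, 3.00 and 1.14 CPM in muscle and 55.5, 58.8 and 73.9 CPM in epithelium (log2 fold change -5.24 ± 0.48 SE, adjusted p = 0.00041). Lypd6 had 12.8, 7.29 and 7.36 CPM in muscle and 33.1, 22.5 and 30.8 CPM in epithelium (-1.65 ± 0.33 SE, adjusted p = 0.012). Both calls held without each library in turn. Shisa7 had 0.418, 2.05 and 0.354 CPM in muscle and 15.98, 9.36 and 11.98 CPM in epithelium (-3.74 ± 0.83 SE, adjusted p = 0.021), and its call ended without muscle replicate 1 or 3 or epithelium replicate 1 or 3, with adjusted p of 0.053 to 0.083.

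Of 31 tested metabotropic receptors of the same transmitters, only P2ry2 and Chrm2 were called (6.45%, beside 10.7% of all tested genes). Chrm2, a muscarinic receptor of airway smooth muscle, had 93.1, 22.5 and 68.6 CPM in muscle and 1.00, 3.74 and 1.5 CPM in epithelium (4.95 ± 0.67 SE, adjusted p = 0.0021).

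Markers of other cell types were compared beside these results. Neuron and glia markers summed to 37.6 to 98 CPM in muscle and 41.5 to 114 CPM in epithelium, with 0 of 13 tested called by edgeR, 1 by DESeq2, 1 by limma-voom and 2 with an unadjusted p under 0.05. Neuroendocrine markers summed to 109 to 115 CPM in muscle and 90.0 to 120 CPM in epithelium, endothelial markers to 46.8 to 78.0 and 13.5 to 67.5 CPM, and edgeR called none of either list (1 in each had an unadjusted p under 0.05, DESeq2 called 0 and limma-voom called 1 endothelial marker). No immune, erythroid or mesothelial marker was called by any of these tools or had an unadjusted p under 0.05. Only 5 of the 9 erythroid markers were tested, since the globin genes Hba-a1, Hba-a2, Hbb-bs and Hbb-bt had no count in any library. Of 5 cartilage markers, 2 were higher in muscle, with sums of 652 to 1129 against 219 to 462 CPM. The part of these cell types in the members' values was not tested.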

How the data were processed

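RNA was measured in 6 libraries of sorted cells, 3 of muscle and 3 of epithelium, assigned by their titles. Per the labels' protocols, Trizol RNA was turned into cDNA by the SMART-Seq v4 ultra-low-input kit and into libraries by Nextera XT. The deposited values are whole-number counts per gene symbol. The submitters' processing notes name Trim Galore, Bowtie2, Cufflinks, DESeq and the build mm10 without roles. The counting program, its annotation and its filters are not given in the sources used here. Counts carry no molecular identifiers, so they include PCR copies. Even numbers made up 73.8% to 79.6% of the counts from 1 to 19 in each library.

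Counts were analysed in R 4.3.3 with edgeR 4.0.16: filterByExpr by group, TMM scaling (trimmed mean of M-values), robust quasi-likelihood fit, two-sided test, Benjamini-Hochberg adjustment over 19375 genes and a threshold of 0.05. CPM uses TMM-scaled library sizes. Log2 fold changes put muscle over epithelium, and SE is derived from the test statistic. For 1 gene alone, 3 libraries against 3 allow no exact permutation p below 0.10. The test was checked on simulated data with log2 fold changes of 2 and 3. Where the average log2 CPM reached 2, 84.3% and 83.3% of the changed genes were recovered. Over all genes these shares were 67.0% and 66.7%, and 8 unchanged genes were called. The check covered only these sizes, so it gives no recovery rate for smaller changes such as those of Gria3 and P2rx4. Positions and exon lengths come from GENCODE (GRCm38) and promoters from RefSeq (GRCm38.p6).

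The members and gene lists were chosen with earlier results of these data known. Members were named if called, if their average log2 CPM reached 2 or if highest in their family, and in each list up to 3 genes of largest fold change in each direction past the threshold. Any other gene named was chosen after its values were seen. Alternatives were DESeq2 1.42.0 and limma 3.58.1 (voom), other scalings, no filter, a replicate block, the receptor-gene level as a covariate, leaving out each library and the later header number only. Deviations of same-numbered libraries from their group means correlated at 0.59, 0.73 and -0.57, so the numbers were not taken as pairs. 4 genes of the lists are not in the table. Results of some genes counted here are not reported.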

Additional observations from a re-analysis of the deposited data

How the results depend on the processing

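P2rx2 passed the threshold under all 15 alternatives and Chrnb1 under all but the one without the 3 libraries of high receptor-gene background. Gria3 passed under 9 and P2rx4 under 5. None of these 4 changed direction, for which groups that do not overlap leave little room. Members higher in muscle were 2, and 1 with RLE size factors or library size only, 4 with DESeq2 or limma-voom, 7 with the receptor-gene covariate, 9 without the high-background libraries, and 0 to 1 without 1 library. Members higher in epithelium were 3, and 7 with DESeq2, the covariate or the later header number only, 6 without the high-background libraries, and 2 to 6 without 1 library. Over all genes, calls were 2071, 3549 with DESeq2, 2951 with the receptor-gene covariate and 1169 to 2573 without 1 library. Pathway genes higher in muscle were 11, 7 with library size only and 5 to 11 without 1 library, and those higher in epithelium were 8, 13 with library size only, 14 with DESeq2 and 5 to 10 without 1 library. Library size only moved the share of calls that were higher in muscle from 61.5% to 42.0% and the median log2 fold change of all genes from -0.10 to -0.33. DESeq2 gave a share of 55.1%. Above background were 42 members, 31 at the 99th percentile and 27 per kilobase. The cause of these shifts was not tested.

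With the replicate block, members called were the same 2 and 3 and all genes called were 2418, but Entpd1 (adjusted p = 0.065), Gsg1l (0.077) and Panx1 (0.11) were lost. Not every library correlated best with its own number.

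Estimates near 0 changed sign. Gabrb2 was -0.03 with library size only and -0.15 to 1.0 without 1 library. Glrb was 0.13 with limma-voom, 0.41 with the later header number only and -0.48 to 0.19 without 1 library. Gria2 was -0.42 with the later header number only and -0.98 to 1.12 without 1 library. Without 1 library, Grik4 was -0.70 to 0.08 and Grik5 -0.39 to 0.34. Grin2b was 4.32 with limma-voom, 0.82 with the replicate block, 2.70 with the covariate, 9.89 without the high-background libraries and -1.08 to 0.78 without 1 library. P2rx7 was 3.12, 0.61, 2.15, 5.72 and -1.84 to 1.05 in the same order. The part of depth in the results of the 39 members under an average log2 CPM of 2 was not tested. Of these, edgeR and limma-voom called none and DESeq2 called 2 (Gabra2 and Gabrq). Both also passed with the covariate, and both and Chrnb4 passed without the high-background libraries.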
